A study of Mus musculus with 8 samples.

Results

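Lipoprotein lipase and 9 genes of its partners, fatty acid uptake, lipolysis and adipocyte lipid storage (Lpl, Gpihbp1, Angptl4, Cd36, Fabp4, Pparg, Lipe, Pnpla2, Plin1 and Plin4) were followed in mouse testis by bulk RNA-seq. The genes were picked by symbol, through the Ensembl gene identifiers of the count files, and all 10 were found among 55421 identifiers. All 10 also passed the filter on low counts, which left 26414 genes for testing. The list was drawn up with results of these libraries known, so that the values and calls below are a description and no independent evidence for any of its genes.

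The study set 4 groups of 2 libraries of testis from wild-type male mice beside each other. In the LPS+DHEA+Nb group, mice given lipopolysaccharide (LPS, the bacterial cell wall component that sets off inflammation) into the peritoneum received dehydroepiandrosterone (DHEA, an androgen precursor steroid) together with Nb23-bi 6 h later. The LPS+DHEA group received LPS and, 6 h later, DHEA without Nb23-bi; the LPS group received LPS alone; the CTRL group received phosphate-buffered saline. The labels name Nb23-bi without describing it, and neither doses, ages nor the time of collection were found in those labels. No group received Nb23-bi without DHEA, and no saline injection at 6 h is described for the LPS group, so that DHEA and the later injection itself cannot be told apart. The labels do not say whether the libraries of a group came from separate animals, and p-values measure the spread between libraries.

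Lipoprotein lipase works on the inner face of capillaries, where it releases fatty acids from the triglycerides of circulating lipoproteins. GPIHBP1 carries the enzyme to that face and ANGPTL4 inactivates it; CD36 helps fatty acids into cells, and FABP4 binds them there. Stored triglyceride is broken down by the lipases encoded by Pnpla2 and Lipe at droplets that perilipins coat, and the nuclear receptor PPARG drives many of these genes in fat cells. In the testis, lipid is handled by Leydig cells, which make steroids from cholesterol, by Sertoli cells, which take up dying germ cells, and by the germ cells themselves.

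The libraries held 61291062 to 64521795 counts and 30142 to 30626 genes with at least 1 count. Levels are given in CPM, in which the count of a gene is scaled to the size of its library. Germ cell markers were abundant, with Prm1, Tnp1, Sycp3 and Ddx4 at 4626 to 5588 CPM in sum, and the Leydig cell markers Cyp17a1, Insl3 and Lhcgr summed to 513.7 to 761.7 CPM. Of 10 listed epididymal markers, the 3 defining ones, Lcn5, Lcn8 and Crisp1, were at or near 0 in every library, at 0 to 0.16 CPM in sum. The 2 of the list that passed the filter were present in every library, Cst8 at 156.2 to 195.4 CPM and Rnase10 at 2.72 to 4.63 CPM.

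The 10 genes fell into a pair of very abundant lipases and 8 scarce genes. Per kilobase of the longest coding transcript, Lipe had a mean of 131 CPM and a range of 123 to 142 over the 8 libraries, and Pnpla2 had a mean of 115 and a range of 104 to 139. Together they held 59.3% and 36.6% of all counts of the list. Fabp4 came next with a mean of 4.39 CPM per kilobase (2.69 to 7.58), followed by Cd36 with 3.07 (1.89 to 4.17), Angptl4 with 1.93 (1.18 to 3.53) and Lpl with 1.22 (0.656 to 2.36). Pparg averaged 1.05 CPM per kilobase (0.801 to 1.31), Plin1 0.994 (0.788 to 1.63), Plin4 0.481 (0.208 to 1.16) and Gpihbp1 0.118 (0 to 0.277). Only between Pnpla2 and Fabp4 did the ranges of neighbours in this order leave a gap; all other neighbours overlapped. The scarce genes rest on few counts, from 165 to 617 counts a library for Lpl and from 0 to 28 for Gpihbp1, so that their values carry more counting error than those of Lipe, with 29272 to 33379.

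**Figure D1:**
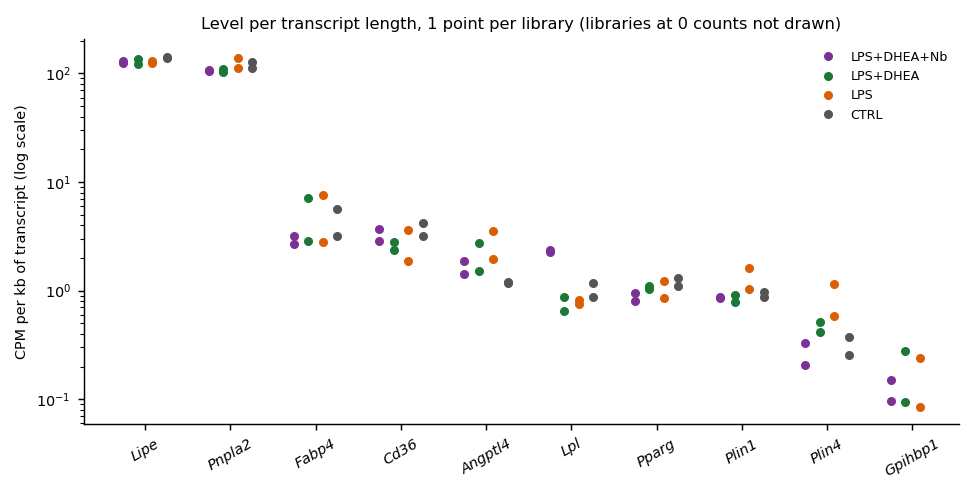
Level of each gene in CPM per kilobase of its longest coding transcript, on a log axis, with 1 point per library and colours for the 4 groups. Lipe and Pnpla2 lie at 104 to 142 in all 8 libraries, and no library of another gene exceeds 7.58; the CTRL libraries of Gpihbp1, at 0 counts, are not drawn.

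Lpl was the only gene of the 10 that passed edgeR's test in any comparison, and it was high in the LPS+DHEA+Nb testes. The gene (ENSMUSG00000015568, chr8:68880491-68907448 on the plus strand of GRCm38) had 9.71 and 9.37 CPM in the LPS+DHEA+Nb libraries, against 3.6 and 2.7 CPM in LPS+DHEA, 3.35 and 3.12 CPM in LPS and 3.59 and 4.87 CPM in CTRL libraries. Both LPS+DHEA+Nb libraries lay above all 6 others, and the libraries of the other 3 groups overlapped in part with each other. The means were 9.54 ± 0.241 CPM in LPS+DHEA+Nb, 3.15 ± 0.636 in LPS+DHEA, 3.24 ± 0.166 in LPS and 4.23 ± 0.905 in CTRL (SD, n = 2 each). Because these are values of bulk tissue, more cells that express Lpl and more Lpl RNA per cell cannot be told apart, and the same holds for every gene below.

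In edgeR's quasi-likelihood test with Benjamini-Hochberg adjustment over all tested genes, Lpl was higher in LPS+DHEA+Nb than in LPS by 1.56 ± 0.22 on the log2 scale (SE), with an adjusted p of 0.0194, in a comparison where 0.17% of all tested genes were called. Against LPS+DHEA the difference was 1.60 ± 0.22, with an adjusted p of 0.0322 by the same test, where 0.0871% were called. Against CTRL, where 0.0303% were called, it was 1.17 ± 0.22, and the adjusted p of 0.231 missed the threshold of 0.05, whereas DESeq2 gave 0.00474. The 3 comparisons share the LPS+DHEA+Nb libraries. LPS and LPS+DHEA libraries gave Lpl log2 differences of -0.39 ± 0.22 and -0.43 ± 0.22 from CTRL, with adjusted p of 0.796 and 0.917, and LPS+DHEA differed from LPS by -0.04 ± 0.22 with an adjusted p of 1 (edgeR quasi-likelihood test).

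The size of the Lpl difference held without any single library, but the calls did not. With 1 library of either group left out, the log2 difference from LPS lay between 1.51 and 1.61 and the edgeR adjusted p between 0.0544 and 0.115; the difference from LPS+DHEA lay between 1.41 and 1.82 and the adjusted p between 0.0586 and 0.149. With only the LPS+DHEA+Nb and LPS libraries in the fit, the adjusted p was 0.0511.

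**Figure D2:**
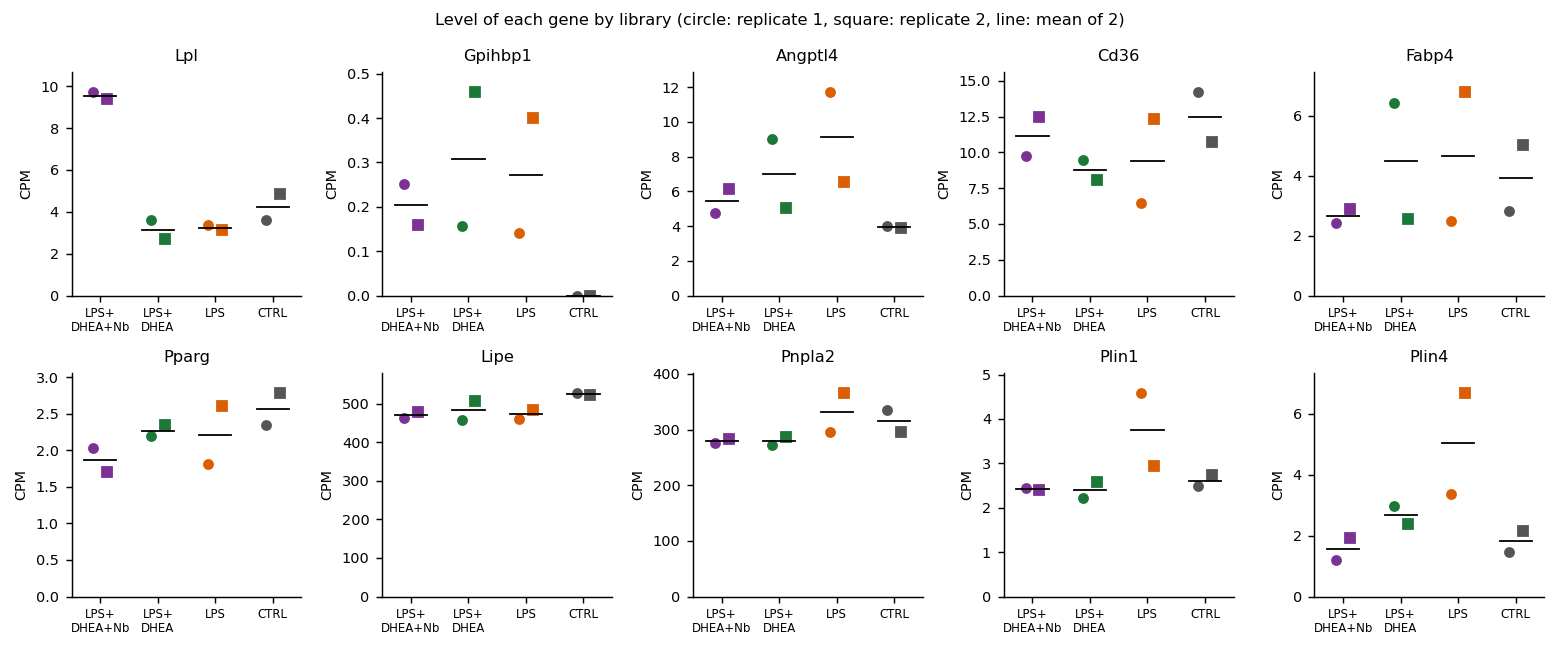
Level of each of the 10 genes in CPM in every library, with a circle for replicate 1, a square for replicate 2 and a line at the mean of 2, and each panel on its own scale from 0. Lpl sits at 9.37 and 9.71 in LPS+DHEA+Nb and at 2.7 to 4.87 elsewhere; Plin4 and Plin1 are highest in LPS, and Gpihbp1 is at 0 in both CTRL libraries.

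The partners of the enzyme did not share the Lpl pattern. Gpihbp1 (chr15:75596628-75599481, plus strand) was barely detected, with 16 and 10 counts in LPS+DHEA+Nb, 10 and 28 in LPS+DHEA, 9 and 25 in LPS and 0 and 0 in CTRL libraries. All 6 libraries from LPS-treated mice held counts and both CTRL libraries held none, which at a floor of 3 counts per library allows up to 0.0479 CPM there. The mean of Gpihbp1 stood at 4.32 times the mean floor of the 2 CTRL libraries (0.0479 and 0.0469 CPM) in LPS+DHEA+Nb, 6.48 times in LPS+DHEA and 5.71 times in LPS. Error in these means, which rest on few counts, is not allowed for, so the ratios are no lower bounds. None of the differences from CTRL passed the edgeR quasi-likelihood test, with adjusted p of 0.929, 0.375 and 0.272, while DESeq2 gave 0.0461 for LPS against CTRL. The levels beside it of the endothelial cells in which Gpihbp1 is known to be made are given with the marker genes.

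Angptl4 (chr17:33773750-33781830, minus strand), the secreted inhibitor of the enzyme, had 4.74 and 6.15 CPM in LPS+DHEA+Nb, 8.99 and 5.02 in LPS+DHEA, 11.7 and 6.51 in LPS and 4.01 and 3.91 in CTRL libraries. The CTRL libraries were the lowest 2 of the 8, and 1 LPS and 1 LPS+DHEA library stood above the rest. The log2 difference of LPS from CTRL was 1.20 ± 0.33 with an adjusted p of 0.362 by edgeR's quasi-likelihood test and 0.0193 by DESeq2, and it was 0.72 without LPS replicate 1. LPS+DHEA+Nb differed from LPS by -0.74 ± 0.33 (edgeR adjusted p = 0.771), or by -0.26 without LPS replicate 1. Its difference from LPS+DHEA, -0.36, turned to 0.12 without LPS+DHEA replicate 1.

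Of the 18 genes listed as lipoprotein lipase, its partners and its regulators, 13 were tested. Of these, Lpl alone was called higher and 0 lower in LPS+DHEA+Nb against LPS (0.17% of all tested genes called) and against LPS+DHEA (0.0871%). In the other 4 comparisons 0 were called, where 0.0189% to 0.295% of all tested genes were. The list's median log2 difference was -0.25 for LPS+DHEA+Nb against LPS, -0.21 for LPS+DHEA+Nb against LPS+DHEA and 0.42 for LPS against CTRL, where the medians of all genes were 0 on the printed scale. Its most abundant genes per kilobase were Lmf1, which helps the lipase fold, Apoe, an apolipoprotein, and Sel1l, of the endoplasmic reticulum, at 43.4, 35.5 and 7.96 CPM per kilobase on average. Lmf1 had 85.6 and 91.7 CPM in LPS+DHEA+Nb, against 80.3 to 96.7 CPM in the 6 other libraries. Sel1l was lower in both LPS+DHEA+Nb libraries, at 40.2 and 42 CPM, than in any other, at 43.4 to 57.3 CPM, with a log2 difference from LPS+DHEA of -0.47 ± 0.12 that missed the threshold (edgeR adjusted p = 0.49). Apoe stood at 95.3 CPM in LPS replicate 2 and at 37.2 to 52.4 CPM in the 7 others.

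Cd36 (chr5:17781690-17888801, minus strand), the fatty acid transporter, varied as much within groups as between them. It had 9.74 and 12.5 CPM in LPS+DHEA+Nb, 9.45 and 8.09 in LPS+DHEA, 6.44 and 12.3 in LPS and 14.2 and 10.7 in CTRL libraries. The LPS libraries lay far apart, replicate 1 below all other libraries and replicate 2 between the 2 CTRL libraries. The log2 difference of LPS from CTRL was -0.41 ± 0.30 (edgeR adjusted p = 0.869), and -0.01 without LPS replicate 1. LPS+DHEA+Nb differed from LPS by 0.25 ± 0.30 and from LPS+DHEA by 0.34 ± 0.30, with edgeR adjusted p of 0.967 and 1; the first turned to -0.15 without LPS replicate 1.

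Fabp4 (chr3:10204088-10208576, minus strand), the fatty acid carrier of fat cells that macrophages and capillary endothelium also make, had 2.41 and 2.89 CPM in LPS+DHEA+Nb, 6.44 and 2.57 in LPS+DHEA, 2.5 and 6.79 in LPS and 2.84 and 5.03 in CTRL libraries. In each of the LPS+DHEA, LPS and CTRL groups 1 library was high and the other low, and both LPS+DHEA+Nb libraries were low. The log2 difference of LPS+DHEA+Nb from LPS was -0.81 ± 0.63 (edgeR adjusted p = 0.914) and 0.08 without LPS replicate 2. The difference from LPS+DHEA was -0.77 ± 0.63 and 0.05 without LPS+DHEA replicate 1.

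Several other uptake and carrier genes were far more abundant per kilobase in testis than Cd36 and Fabp4, and none passed the test in any comparison. Of 19 listed uptake genes 18 were tested, and of 9 fatty acid binding proteins 5. In the 6 comparisons 0 of them were called, where 0.0189% to 0.295% of all tested genes were. Acsl1, which activates fatty acids with coenzyme A, led the uptake genes with 210 CPM per kilobase, followed by Scarb1, the receptor for high-density lipoprotein, with 41.4 and Acsl6 with 24.2. Fabp9, the fatty acid binding protein of sperm, averaged 1280 CPM per kilobase, Fabp3 103 and Fabp12 13.1. Fabp3 had 72.8 and 67.5 CPM in LPS+DHEA+Nb, 100.5 and 98.5 in LPS+DHEA, 90.7 and 105.5 in LPS and 81.9 and 61.2 in CTRL libraries. Its LPS+DHEA+Nb libraries lay below all 4 LPS and LPS+DHEA libraries, the opposite order to Lpl, with a log2 difference from LPS of -0.48 ± 0.13 that did not pass (edgeR adjusted p = 0.351).

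Pparg (chr6:115360951-115490399, plus strand), the nuclear receptor of fat cell formation, had 2.03 and 1.7 CPM in LPS+DHEA+Nb, 2.19 and 2.35 in LPS+DHEA, 1.81 and 2.61 in LPS and 2.35 and 2.78 in CTRL libraries. The LPS+DHEA+Nb libraries lay below both CTRL libraries, by -0.46 ± 0.28 on the log2 scale (edgeR adjusted p = 1), and overlapped the LPS libraries. Of 22 listed PPAR receptors, partners and targets 20 were tested. In LPS+DHEA+Nb against LPS and against LPS+DHEA 0 were called (0.17% and 0.0871% of all tested genes), with median log2 differences of -0.20 and -0.13. Among them Plin2, a perilipin found in many tissues, and Acadl, an enzyme of fatty acid oxidation, averaged 23.9 and 11.3 CPM per kilobase. Of 17 genes of fatty acid oxidation, all tested, 0 were called in any comparison (0.0189% to 0.295% of all tested genes). The most abundant were Cpt1b, Hadha and Hadhb at 108, 89.3 and 37.8 CPM per kilobase.

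Lipe (chr7:25379527-25398710, minus strand) encodes hormone-sensitive lipase, which cleaves diglycerides and cholesteryl esters and without which male mice are sterile. It had 461.5 and 478.1 CPM in LPS+DHEA+Nb, 458.2 and 507.4 in LPS+DHEA, 460.7 and 484.1 in LPS and 526.8 and 521.5 in CTRL libraries. All 6 libraries from LPS-treated mice lay below both CTRL libraries, in a gene whose highest and lowest library differed 1.15-fold. The log2 difference of LPS from CTRL was -0.15 ± 0.06 (edgeR adjusted p = 0.683), and that of LPS+DHEA+Nb from CTRL was -0.16 ± 0.06 (edgeR adjusted p = 1). Lipe shares 918 exon bases with 4732471J01Rik on the opposite strand, which had 222 to 379 counts a library; the strand setting of the counting is not stated in the labels, so that reads of the pair may not be told apart.

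Pnpla2 (chr7:141455198-141460743, plus strand) encodes adipose triglyceride lipase, which starts the breakdown of stored triglyceride. It had 276.6 and 282.3 CPM in LPS+DHEA+Nb, 271.7 and 287 in LPS+DHEA, 296.5 and 365.4 in LPS and 334.5 and 295.3 in CTRL libraries. The LPS+DHEA+Nb and LPS+DHEA libraries all lay below the LPS and CTRL libraries. The log2 difference from LPS was -0.24 ± 0.10 for LPS+DHEA+Nb and -0.24 ± 0.10 for LPS+DHEA, with edgeR adjusted p of 0.698 and 1, and both were -0.09 without LPS replicate 2.

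The promoter windows of the abundant lipases, Lipe and Pnpla2, and of Plin4, the gene with the widest spread among those detected in every library, are shown because the lipases head the order of levels and Plin4 comes near its end. They are the 250 bases before each transcription start from RefSeq on GRCm38.p6, written 5′ to 3′ on the gene's strand, with the GC box GGGCGG, or CCGCCC where it lies on the other strand, in capitals; overlapping matches run together.
Lipe, upstream start (chr7:25395988-25396237, minus strand): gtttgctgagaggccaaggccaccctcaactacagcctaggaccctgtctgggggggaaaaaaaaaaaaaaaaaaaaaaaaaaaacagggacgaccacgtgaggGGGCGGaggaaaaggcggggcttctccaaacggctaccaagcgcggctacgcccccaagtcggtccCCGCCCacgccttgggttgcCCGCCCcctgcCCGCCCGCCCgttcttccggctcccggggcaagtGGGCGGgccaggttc
Lipe, downstream start (chr7:25390113-25390362, minus strand): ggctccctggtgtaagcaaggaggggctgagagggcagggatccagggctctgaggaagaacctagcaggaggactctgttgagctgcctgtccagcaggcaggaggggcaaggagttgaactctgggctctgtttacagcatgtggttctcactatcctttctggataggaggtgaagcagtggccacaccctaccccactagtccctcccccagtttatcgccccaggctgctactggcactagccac
Pnpla2 (chr7:141454938-141455187, plus strand): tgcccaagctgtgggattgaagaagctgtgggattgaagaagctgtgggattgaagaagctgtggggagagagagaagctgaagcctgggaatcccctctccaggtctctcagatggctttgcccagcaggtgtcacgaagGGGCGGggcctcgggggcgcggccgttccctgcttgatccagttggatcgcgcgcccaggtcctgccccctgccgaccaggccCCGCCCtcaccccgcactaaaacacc
Plin4 (chr17:56109783-56110032, minus strand): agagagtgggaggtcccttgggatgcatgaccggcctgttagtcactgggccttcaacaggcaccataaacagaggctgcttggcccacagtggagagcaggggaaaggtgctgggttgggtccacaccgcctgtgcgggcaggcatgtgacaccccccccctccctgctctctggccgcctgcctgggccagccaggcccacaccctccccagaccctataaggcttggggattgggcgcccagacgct
The upstream Lipe window held 6 GC boxes and the downstream one, whose start lies 5875 bases further along, held 0. Gene-level counts cannot separate transcripts of these 2 starts. The gene annotation (GENCODE M21) also holds a coding Lipe transcript, Lipe-204, that starts further upstream, at chr7:25398710, and has no window here. Pnpla2 held 2 and Plin4 held 0, and the Plin4 window had a GC content of 65.2%, against 62.8% for the upstream Lipe window, 58.8% for the downstream one and 63.2% for Pnpla2. A GC box was present in 32.7% of the 32851 windows of the same length in the reference table. The nuclear receptor half-site AGGTCA, present in 14.0% of windows, was in the Cd36 window and in 2 of 3 Pparg windows, and its direct repeat with 1 free base between the copies, present in 0.0335%, was in none of the 9 windows of the 6 listed genes with an entry. A match is a description of these letters and shows no binding.

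Plin1 and Plin4, perilipins that coat lipid droplets in fat cells, were highest in the LPS libraries. Plin1 (chr7:79720218-79732903, minus strand) had 2.45 and 2.41 CPM in LPS+DHEA+Nb, 2.22 and 2.58 in LPS+DHEA, 4.58 and 2.94 in LPS and 2.48 and 2.73 in CTRL libraries. Both LPS libraries lay above the other 6, replicate 2 by a narrow margin. The log2 difference of LPS from CTRL was 0.53 ± 0.26 (edgeR adjusted p = 0.747) and 0.18 without LPS replicate 1, and LPS+DHEA+Nb differed from LPS by -0.63 ± 0.26 (edgeR adjusted p = 0.735).

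Plin4 (chr17:56100591-56109803, minus strand) had 1.2 and 1.91 CPM in LPS+DHEA+Nb, 2.97 and 2.37 in LPS+DHEA, 3.38 and 6.68 in LPS and 1.47 and 2.16 in CTRL libraries. The LPS libraries were the highest 2, the LPS+DHEA libraries came next, and the LPS+DHEA+Nb and CTRL libraries overlapped at the low end. The log2 difference of LPS from CTRL was 1.47 ± 0.37 with an adjusted p of 0.223 by edgeR's quasi-likelihood test and 0.0297 by DESeq2. LPS+DHEA+Nb differed from LPS by -1.70 ± 0.37 with adjusted p of 0.195 by edgeR and 0.00707 by DESeq2, and LPS+DHEA differed from LPS by -0.91 ± 0.36 (edgeR adjusted p = 1). These comparisons share the LPS libraries, and without LPS replicate 2 they gave 0.90, -1.12 and -0.35. Plin4 shares 17 exon bases with Hdgfl2 on the opposite strand. Of 18 listed genes of lipolysis and the lipid droplet 17 were tested and 0 called in any comparison (0.0189% to 0.295% of all tested genes). Besides Lipe and Pnpla2, the most abundant was Dgat2, which makes triglyceride, at 121 CPM per kilobase.

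The counts over the 10 genes are set here beside the same counts over all tested genes. In LPS+DHEA+Nb against LPS, 1 of 10 was called by edgeR, where 0.17% of all tested genes were; 4 had an unadjusted p under 0.05 (6.56% of all genes), and in 5 the libraries of the groups did not overlap (36.8% of all genes). DESeq2 called 2 there, against 0.784% of the genes to which it gave an adjusted p. In LPS+DHEA+Nb against LPS+DHEA 1 was called (0.0871% of all genes), 1 had an unadjusted p under 0.05 (4.4%) and 4 did not overlap (32.7%), while DESeq2 called 1 (0.497% of its genes). In LPS against CTRL the edgeR quasi-likelihood test called 0 (0.295% of all genes) and DESeq2 called 3 (1.18% of its genes), with 4 at an unadjusted p under 0.05 (7.11%) and 6 not overlapping (37.0%). In LPS+DHEA against LPS, edgeR and DESeq2 both called 0 (edgeR 0.0189% of all genes, DESeq2 0.135% of its genes), with 3 at an unadjusted p under 0.05 (3.51%) and 3 not overlapping (31.8%). In LPS+DHEA against CTRL both called 0 (edgeR 0.151%, DESeq2 0.721%), with 2 at an unadjusted p under 0.05 (5.72%) and 6 not overlapping (35.3%). In LPS+DHEA+Nb against CTRL edgeR called 0 (0.0303%) and DESeq2 called 1 (0.312% of its genes), with 3 at an unadjusted p under 0.05 (4.28%) and 7 not overlapping (32.9%). The median log2 difference of the 10 genes was -0.32 in LPS+DHEA+Nb against LPS, -0.16 against LPS+DHEA and 0.16 in LPS against CTRL, with 0 for the median of all genes on the printed scale.

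**Figure D3:**
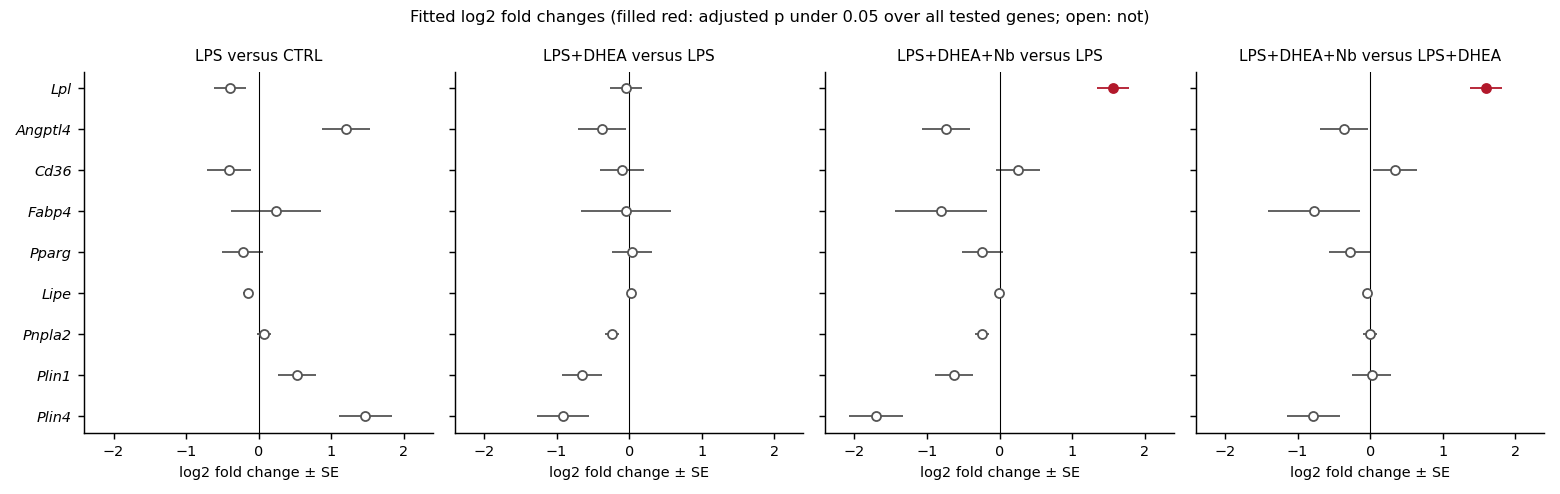
Fitted log2 fold change ± SE of 9 genes in 4 comparisons, from edgeR's quasi-likelihood fit of all 8 libraries; filled red points passed an adjusted p of 0.05 over all tested genes and open points did not. Only Lpl is filled, at 1.56 against LPS and 1.60 against LPS+DHEA; Gpihbp1 is left out because both CTRL libraries were at 0.

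Of 21 listed adipocyte markers 19 were tested, and 0 of these had both LPS+DHEA+Nb libraries above the other 6, as Lpl had. In the opposite order, 1 of them, Slc2a4, had both LPS+DHEA+Nb libraries below the other 6. The share of all tested genes with either order was not counted. The counts of these orders, here and among other cell markers below, are therefore descriptions only. The 8 defining adipocyte markers (Adipoq, Lep, Retn, Cidec, Plin1, Adrb3, Trarg1 and Cfd) summed to 17.1 and 16.9 CPM in LPS+DHEA+Nb, 18.4 and 16.5 in LPS+DHEA, 20.2 and 30.6 in LPS and 15.5 and 20.4 in CTRL libraries. The LPS+DHEA+Nb libraries, with the highest Lpl, lay in the middle of these sums, below both LPS libraries. Few genes carry the sums: Adipoq held 757 of 1085 counts in LPS+DHEA+Nb replicate 1 and 637 of 1070 in replicate 2. In LPS replicate 2, Adipoq held 739 and Cfd 685 of 1912 counts. Adrb3, the receptor through which nerves switch on fat cell lipolysis, was at 0 counts in 6 libraries, among them both of LPS+DHEA+Nb, and had 5 counts in LPS replicate 1 and in CTRL replicate 1. Lep, the fat cell hormone leptin, had 0.0787 and 0.315 CPM in LPS+DHEA+Nb, against 0.438 and 0.409 in LPS+DHEA, 0.0787 and 0.192 in LPS and 0.256 and 0.25 in CTRL libraries.

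For 3 of the 19 tested adipocyte markers, Cfd, Cidec and Fabp4, picked out after their values were seen, the highest 3 libraries were LPS+DHEA replicate 1, LPS replicate 2 and CTRL replicate 2. Cfd, the fat cell protease adipsin, had 1.07 and 1.89 CPM in LPS+DHEA+Nb, 4.91 and 1.54 in LPS+DHEA, 2.83 and 11 in LPS and 1.41 and 4.11 in CTRL libraries. Cidec, which fuses lipid droplets, had 0.283 and 0.536 CPM in LPS+DHEA+Nb, 1.49 and 0.458 in LPS+DHEA, 0.63 and 2.53 in LPS and 0.927 and 1.73 in CTRL libraries. Lpl in those libraries was 3.6, 3.12 and 4.87 CPM, below both LPS+DHEA+Nb libraries. The other 16 tested markers had another set of highest libraries. Among them were Plin1, highest in LPS replicate 1, and Lep, highest in both LPS+DHEA libraries. Adipoq, the hormone adiponectin, had 11.9 and 10 CPM in LPS+DHEA+Nb, 7.01 and 10.5 in LPS+DHEA, 11 and 11.8 in LPS and 9.33 and 10.2 in CTRL libraries.

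Of all 21 adipocyte markers 19 were tested and 0 were called in any of the 6 comparisons, where 0.0189% to 0.295% of all tested genes were called. The median log2 difference of these markers was -0.24 for LPS+DHEA+Nb against LPS and -0.14 against LPS+DHEA. Their sum of 669.7 to 749.2 CPM is mostly Lipe and Aqp7, which the testis itself makes at 131 and 69.3 CPM per kilobase, and 5 of the 21 are among the 10 genes described here (Fabp4, Lipe, Pparg, Plin1 and Plin4).

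Markers of other cells moved in part with the groups. The Leydig cell markers Cyp17a1, Insl3 and Lhcgr summed to 677.8 and 609.2 CPM in LPS+DHEA+Nb, 535.3 and 513.7 in LPS+DHEA, 592.2 and 595.6 in LPS and 662.7 and 761.7 in CTRL libraries. The LPS+DHEA+Nb sums lay above those of LPS and LPS+DHEA and overlapped those of CTRL. Insl3 held most of each sum, and its LPS+DHEA+Nb libraries, at 558.4 and 506.1 CPM, overlapped the LPS libraries, at 544.3 and 574.8 CPM. Cyp17a1 and Lhcgr had both LPS+DHEA+Nb libraries above both LPS libraries. Cyp17a1, the enzyme that turns progestins into androgen precursors, had 112.7 and 96.3 CPM in LPS+DHEA+Nb, 27.7 and 25.3 in LPS+DHEA, 44.2 and 17.4 in LPS and 105.5 and 155.4 in CTRL libraries. All 8 Leydig markers had a positive log2 difference in LPS+DHEA+Nb against LPS+DHEA, with a median of 0.87. Of these, 0 were called by edgeR (0.0871% of all tested genes) and 6 had an unadjusted p under 0.05 (4.4% of all tested genes). Of the 8, only Star, which carries cholesterol into mitochondria, had both LPS+DHEA+Nb libraries above the other 6, as Lpl had. Star had 62.7 and 36.1 CPM in LPS+DHEA+Nb, 14.5 and 25.2 in LPS+DHEA, 34.3 and 29.2 in LPS and 25.9 and 33.1 in CTRL libraries, and the margin of replicate 2 over the highest LPS library was narrow. Its log2 difference was 1.32 ± 0.39 from LPS+DHEA, 0.64 ± 0.38 from LPS and 0.74 ± 0.38 from CTRL, with edgeR adjusted p of 1, 0.875 and 1. The part of these cells in the Lpl difference was not tested.

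Endothelial markers (Pecam1, Cdh5, Tie1 and Cldn5) summed to 23.4 and 21.1 CPM in LPS+DHEA+Nb, 23.9 and 24.8 in LPS+DHEA, 25.7 and 29.7 in LPS and 19 and 20.9 in CTRL libraries. They were present in both CTRL libraries, where Gpihbp1 was at 0. Macrophage markers (Adgre1, Csf1r, C1qa and C1qb) summed to 40.5 and 42.5 CPM in LPS+DHEA+Nb, 37 and 36 in LPS+DHEA, 38.2 and 42.8 in LPS and 37.7 and 43 in CTRL libraries, and the groups' sums overlapped except that those of LPS+DHEA lay below those of the other groups. Of the 12 macrophage markers, only Cx3cr1, a chemokine receptor named here after its values were seen, had both LPS+DHEA+Nb libraries above the other 6. In the opposite order, 2 of the 12, Mrc1 and Cd163, had both LPS+DHEA+Nb libraries below the other 6. Cx3cr1 had 3.56 and 3.47 CPM in LPS+DHEA+Nb, 1.03 and 1.64 in LPS+DHEA, 1.35 and 1.1 in LPS and 2.88 and 3.39 in CTRL libraries. Its log2 difference was 1.51 ± 0.29 from LPS, 1.40 ± 0.29 from LPS+DHEA and 0.16 ± 0.28 from CTRL, with edgeR adjusted p of 0.11, 0.249 and 1. Among the same markers Cd163, a scavenger receptor, fell by 2.95 on the log2 scale in LPS+DHEA+Nb against LPS (edgeR adjusted p = 0.0318), and Marco, another, rose by 4.31 in LPS against CTRL (edgeR adjusted p = 0.0186). Neutrophil markers (S100a8, S100a9, Ly6g and Retnlg) summed to 0.739 and 0.221 CPM in LPS+DHEA+Nb, 3.77 and 1.41 in LPS+DHEA, 4.16 and 2.16 in LPS and 0 and 0.0781 in CTRL libraries, and S100a8 was called higher in LPS than in CTRL (edgeR adjusted p = 0.0237). The smooth muscle and peritubular markers Acta2 and Myh11 summed to 83.8 and 82.1 CPM in LPS+DHEA+Nb, 124.5 and 145.5 in LPS+DHEA, 140.6 and 142.6 in LPS and 76.7 and 73.3 in CTRL libraries, lower in LPS+DHEA+Nb than in LPS and LPS+DHEA, the opposite of Lpl in those groups. Acta2 fell by 0.92 on the log2 scale in LPS+DHEA+Nb against LPS (edgeR adjusted p = 0.00443) and by 0.84 against LPS+DHEA (edgeR adjusted p = 0.0172). Sertoli cell markers (Sox9, Fshr and Rhox5) stayed between 26.1 and 29.5 CPM in all 8 libraries. The part of any of these cells in the values of the 10 genes was not tested.

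**Figure D4:**
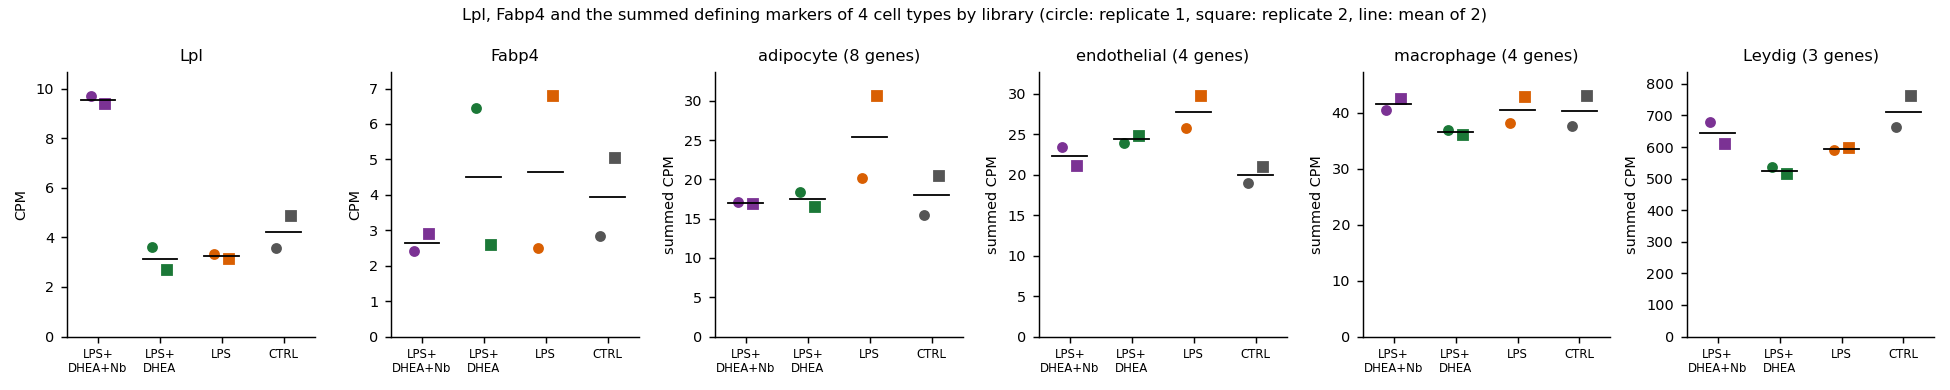
Lpl, Fabp4 and the summed CPM of defining markers of 4 cell types in every library, with a circle for replicate 1, a square for replicate 2 and a line at the mean of 2. Lpl is highest in LPS+DHEA+Nb, where the 8 adipocyte markers sum to 17.1 and 16.9; Fabp4 and the adipocyte sum are highest in LPS replicate 2, at 6.79 and 30.6.

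By Pearson correlation of log2 CPM over the 8 libraries, in which the 2 LPS+DHEA+Nb libraries stand apart for Lpl, the genes most like Lpl among 14108 named genes of at least 1 CPM on average were Rbm12 (r = 0.976), Glis2 (0.943), Spcs1 (0.932), Emc6 (0.927) and Gss (0.926). Spcs1, a subunit of the signal peptidase that trims secreted proteins, had 300.1 and 230.7 CPM in LPS+DHEA+Nb, 129.9 and 137.1 in LPS+DHEA, 138.4 and 135.8 in LPS and 147.2 and 144.9 in CTRL libraries. It passed the test against all 3 other groups, by 0.95, 0.99 and 0.86 on the log2 scale against LPS, LPS+DHEA and CTRL (edgeR adjusted p = 0.00469, 0.00761 and 0.0277). Spcs1 was picked by its correlation with Lpl over these same 8 libraries, so its calls are a description and no independent evidence. Glis2 had 2.42 and 2.62 CPM in LPS+DHEA+Nb and 0.899 to 1.49 CPM in the 6 others, and Rbm12 had 18.1 and 15.6 CPM in LPS+DHEA+Nb and 9.65 to 12.9 CPM in the others; neither passed the test, with edgeR adjusted p of at least 0.256. Emc6 and Gss followed the same order with narrower ranges, of 33.2 to 36.1 and 6.46 to 8.33 CPM. Among the other 9 genes of the list, the correlation with Lpl ran from 0.276 for Cd36 to -0.603 for Plin4, and 8 of the 9 were below 0. Values below 0 were common: that of Gpihbp1, -0.054, would rank 7343 among the 14108 named genes. Gpihbp1 itself lies under their minimum of 1 CPM. The share of these genes below 0 was not counted.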

How the data were processed

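Total RNA of testis was sequenced in 8 libraries, prepared with the KAPA stranded kit per the labels' protocols, which name islets as the source of RNA in 1 sentence and testis everywhere else. The submitters' processing notes list HISAT, featureCounts 1.5.0-p3 and the build GRCm38, with no role or order; neither the strand setting nor the treatment of reads that map to several places was stated there. The deposited tables hold 1 whole number per Ensembl gene and library. They are taken as estimated counts made by the authors, since 33.5% of values from 1 to 40 are multiples of 4 where an even spread gives 25%; they were used as deposited, and dividing them by 4 was an alternative. Symbols and positions were matched by identifier (GENCODE M21 on GRCm38).

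edgeR 4.0.16 (R 4.3.3) fitted all 8 libraries with 4 group means: filterByExpr (minimum count 10, total 15) left 26414 genes, TMM factors were 0.985 to 1.015, the common biological coefficient of variation was 0.231, and 4 residual degrees of freedom remained. Each of 6 comparisons used the quasi-likelihood F-test, 2-sided, with Benjamini-Hochberg adjustment over all tested genes and a threshold of 0.05; the SE is the log2 fold change divided by the square root of F. CPM uses TMM library sizes, and levels per kilobase divide by the longest coding transcript. The fit was tested on simulated counts. DESeq2 1.42.0, other size factors, no filter, fits of only the 2 groups compared, a replicate block, and fits without each library were the alternatives. The genes named are the 10 members, called and most abundant genes of lists of related genes and of cell type markers, all defining markers, and the 5 genes nearest to Lpl. The members and lists were chosen with earlier results of these data known. The floor of 3 counts covers counting error only. One gene of the related lists is not reported here.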

Additional observations from a re-analysis of the deposited data

How the results depend on the processing

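The log2 fold changes of the 10 genes kept their direction where they were called. Of 833 recomputed values, 759 kept a call or, where uncalled in both fits, moved by less than the SE of the main fit. Another 59, uncalled in both fits, moved further, 5 gained a call and 10 lost one. The number of the 10 genes called was 3 by DESeq2 (0 by edgeR) in LPS against CTRL, 2 (1 by edgeR) in LPS+DHEA+Nb against LPS and 1 (0 by edgeR) in LPS+DHEA+Nb against CTRL. It was 0 with only the 2 groups compared in LPS+DHEA+Nb against LPS. Without each library in turn it was 0 to 1 for LPS+DHEA+Nb against LPS and against LPS+DHEA, and 0 to 0 in the other 4 comparisons; the lone library of a group was then assumed to vary like the other groups.

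Over all tested genes, given in the order LPS against CTRL, LPS+DHEA against LPS, LPS+DHEA+Nb against LPS, LPS+DHEA+Nb against LPS+DHEA, LPS+DHEA against CTRL and LPS+DHEA+Nb against CTRL, edgeR called 78, 5, 45, 23, 40 and 8 genes. With no filter on low counts it called 140, 10, 87, 42, 80 and 17, and DESeq2 called 293, 35, 207, 116, 183 and 76. With only the 2 groups compared, the counts were 20 for LPS+DHEA against LPS, 19 for LPS+DHEA+Nb against LPS, 40 for LPS+DHEA+Nb against LPS+DHEA and 61 for LPS+DHEA against CTRL. Without each library in turn they ranged from 66 to 118, 10 to 24, 43 to 88, 16 to 64, 27 to 65 and 8 to 37. The cause of these shifts was not tested.

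The replicate numbers did not pair the libraries: differences between the replicates of 2 groups correlated at -0.033 to 0.031 over genes. With the replicate number as a block, the number of the 10 genes called in LPS+DHEA+Nb against LPS+DHEA was 0, with an adjusted p of 0.0596 for Lpl, and the counts over all genes were 62, 5, 47, 16, 29 and 8 in the order above. Division by 4 and other size factors moved none of these counts by over 1.5 times. Gpihbp1, with 0 to 28 counts a library, lies near the limit of this depth.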
